A study of Mus musculus with 15 samples.

Results

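Endothelial cells line blood vessels, and 10 transcripts that mark them were followed in bulk RNA sequencing of mouse skin adipocytes. The transcripts were Pecam1, Cdh5, Cldn5, Kdr, Flt1, Tek, Tie1, Emcn, Egfl7 and Sox17. They were chosen by name from the 35373 genes of the count table, with earlier results of these data known. The 15 libraries came from the cells that float after dorsal skin is digested with collagenase, and the submitters label their cell type as adipocytes. The Wnt-activated mice carried EngrailedCre/+, Rosa26rtTA/Rosa26rtTA and TetOBcat/+, so that β-catenin was switched on in cells descended from Engrailed-expressing cells. They were sampled after 2 days of activation at postnatal day 23 (P23, n = 4) and after 5 days at P26 (n = 5). The controls were P23 (n = 3) and P26 (n = 3) mice that carried +/+, Rosa26rtTA/Rosa26rtTA and TetOBcat/+ and no Cre. All mice, controls included, received doxycycline in food at 6 g/kg and in water at 2 mg/mL. Replicates are labelled as biological, no label says how mice map to libraries, and the p-values below measure the spread between these samples.

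Endothelial cells form a tight lining through adherens and tight junctions, and they sense their surroundings through receptors for vascular endothelial growth factors (VEGFs) and for angiopoietins. Fat tissue is densely supplied with capillaries, which deliver lipids and hormones to adipocytes and are wrapped by pericytes and smooth muscle (mural cells). Transcription factors of the ETS family are widely used by endothelial genes, and TCF/LEF factors are the DNA-binding partners of β-catenin.

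The stretches just before the start sites of 4 of the genes are shown because the 10 transcripts varied together across libraries. RefSeq promoter windows of build GRCm38.p6 were found for 7 of the 10 genes, with 9 windows in all, and were cut to the 250 bases before the start. In the first 3, capitals mark the ETS core GGAA or its reverse TTCC. In Egfl7, capitals mark the TCF/LEF match CTTTGAT.
Tek, chr4:94739039-94739288, plus strand: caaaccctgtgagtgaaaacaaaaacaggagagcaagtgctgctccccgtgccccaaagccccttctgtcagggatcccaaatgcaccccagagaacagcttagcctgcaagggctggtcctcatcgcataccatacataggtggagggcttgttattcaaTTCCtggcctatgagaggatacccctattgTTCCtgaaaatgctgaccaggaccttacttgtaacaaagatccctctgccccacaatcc
Kdr, chr5:75978456-75978705, minus strand: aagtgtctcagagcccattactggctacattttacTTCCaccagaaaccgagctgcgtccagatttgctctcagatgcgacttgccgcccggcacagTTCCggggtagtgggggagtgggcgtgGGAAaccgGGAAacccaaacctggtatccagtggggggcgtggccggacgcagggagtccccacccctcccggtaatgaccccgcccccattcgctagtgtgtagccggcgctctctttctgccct
Flt1, chr5:147726012-147726261, minus strand: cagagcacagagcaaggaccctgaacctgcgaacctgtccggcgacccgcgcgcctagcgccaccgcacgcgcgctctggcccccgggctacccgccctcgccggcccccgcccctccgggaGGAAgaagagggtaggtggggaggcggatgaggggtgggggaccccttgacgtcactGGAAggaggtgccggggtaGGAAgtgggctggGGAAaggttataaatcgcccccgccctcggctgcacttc
Egfl7, chr2:26580833-26581082, plus strand: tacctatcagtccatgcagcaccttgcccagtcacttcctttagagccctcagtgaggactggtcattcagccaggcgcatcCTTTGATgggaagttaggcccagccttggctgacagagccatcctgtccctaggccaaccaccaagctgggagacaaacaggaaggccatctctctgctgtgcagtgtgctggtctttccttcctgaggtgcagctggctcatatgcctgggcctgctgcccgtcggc
Searched on both strands, GGAA occurred 2 times in the Tek window, 4 times in the Kdr window and 4 times in the Flt1 window. It occurred in 8 of the 9 windows of these genes, the exception being Cldn5, and in 93.4% of all 32851 promoter windows of the same length. The longer match CAGGAA, which contains GGAA, was in 5 of the 9 windows and in 25.7% of all windows. CTTTGAT or its reverse ATCAAAG was in 1 of the 9 windows, the one of Egfl7 printed here, and in 3.21% of all windows. These are matches of letters and not binding sites.

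The libraries held 17270221 to 26945774 counts at 2 days of Wnt activation, 29441672 to 32617857 in P23 controls, 11383421 to 38501753 at 5 days and 15700686 to 30799583 in P26 controls. Levels are in CPM, a gene's counts set against the total of its library, with scaling by edgeR's trimmed mean of M values. The scaling factor was 1.408 in P26 control 1, which lowers its levels, and 0.847 to 1.1 in the other libraries. The labelled cell type was checked with 9 adipocyte genes (Adipoq, Plin1, Lep, Fabp4, Cidec, Pparg, Lipe, Cfd and Lpl), whose summed level was 10450 to 75440 CPM in every library. In 5-day replicates 5 and 1 the sum of 7 stromal genes (63000 and 29180 CPM) exceeded that of the adipocyte genes (10820 and 20340 CPM), and these were also the 5-day libraries with the highest mural sums, 2205 and 2045 CPM, and the highest sums of endothelial members, 849 and 609 CPM. P26 control 1 was low in both, at 10450 CPM for adipocyte and 4452 CPM for stromal genes. The authors' deposited sample sheet lists 2-day replicate 1 as a control, against its title and genotype, and its title was followed here. Xist was at 0 CPM and Y-linked transcripts were at 44.8 to 149.8 CPM in 2-day replicates 2 to 4, all 5-day libraries and replicate 1 of each control group, and the other libraries held at most 1.39 CPM of the Y-linked transcripts. Mitochondrially encoded transcripts made up 8.37% to 31.7% of counts at 2 days, against 5.30% to 9.37% in P23 controls, and 9.20% to 16.6% at 5 days, against 3.69% to 7.93% in P26 controls.

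All 10 endothelial transcripts were detected, and together they were far below the adipocyte genes. Their summed level was 838, 518, 1066 and 20.5 CPM in 2-day replicates 1 to 4, against 112, 254 and 866 CPM in P23 controls 1 to 3. It was 609, 445, 366, 438 and 849 CPM in 5-day replicates 1 to 5, against 322, 273 and 215 CPM in P26 controls 1 to 3. At 5 days every library stood above every control in scaled CPM. This separation depended on the scaling factor of 1.408 in P26 control 1. By library totals alone, that control would lie above 5-day replicates 3 and 4. At 2 days the groups overlapped, and 1 library, replicate 4, was nearly empty of these transcripts. In bulk libraries such as these, fewer endothelial cells and less RNA per cell cannot be told apart. By mean, the order was 2 days (611 ± 453 CPM, n = 4), 5 days (541 ± 194, n = 5), P23 controls (410.7 ± 401, n = 3) and P26 controls (269.8 ± 53.3, n = 3, all SD). Each neighbouring pair of means in this order differed by less than the larger SD of the pair.

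**Figure D1:**
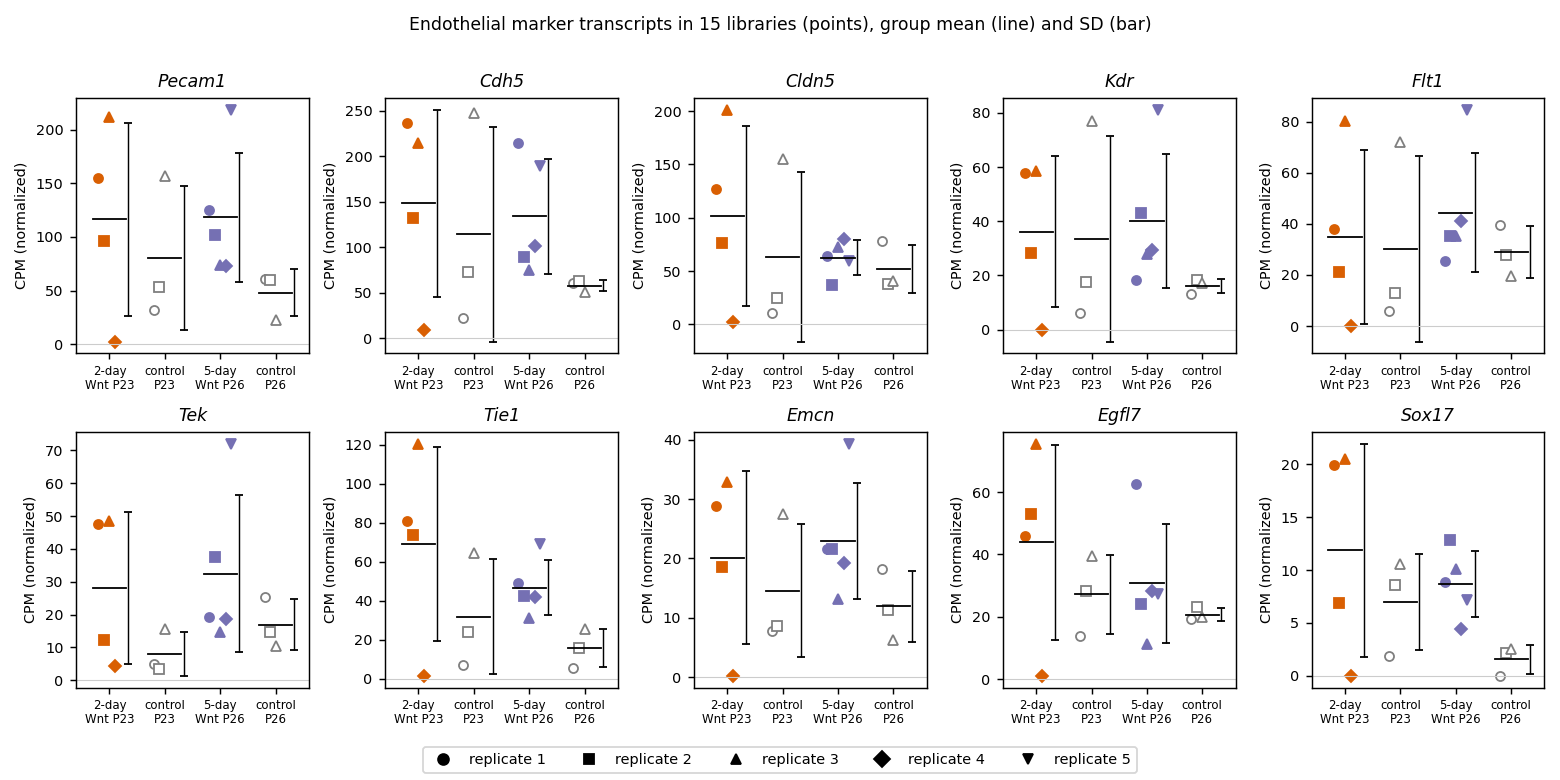
Level of each endothelial transcript in CPM (vertical axis) in each library (points, shape by replicate number) of the 4 groups (horizontal axis), with the group mean as a line and the SD as a bar. 2-day replicate 4 is the lowest of all 15 libraries, or tied for it at 0, for every gene but Tek. With the scaling used, the 5-day libraries lie above all P26 controls for Pecam1, Cdh5, Kdr, Tie1 and Sox17.

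Per kilobase of exon, which allows levels of different genes to be compared, Cldn5 was the most abundant, with a median of 45.6 CPM per kb over the 15 libraries. Cdh5 followed at 21.2, Pecam1 at 11.8, Tie1 at 8.57 and Egfl7 at 7.59 CPM per kb. Emcn (3.43), Tek (3.35), Kdr (3.11) and Flt1 (2.62) were close together, and Sox17 was lowest at 1.5 CPM per kb. Cldn5 exceeded Cdh5 in 12 of 15 libraries, Cdh5 exceeded Pecam1 in 15, Pecam1 exceeded Tie1 in 14 and Egfl7 exceeded Emcn in 15. Tie1 exceeded Egfl7 in only 9 of 15, and Emcn exceeded Tek in 4 of 15 although its median was higher, so those neighbours were not ordered beyond the spread between libraries.

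The first question was whether endothelial transcripts differed between skin adipocyte preparations after 2 days of Wnt activation and P23 controls. No member passed the test, and no gene did among the 16935 tested (0% called, edgeR quasi-likelihood test, Benjamini-Hochberg adjusted p under 0.05, with 875 genes at an unadjusted p under 0.05). DESeq2 called no member either, where it called 0.88% of all genes. All 10 log2 fold changes were positive, with a median of 0.61, where 49.4% of all tested genes were positive and the median of all genes was 0. No member had all 4 Wnt libraries above all 3 controls, a pattern shown by 2.24% of all genes. Tek had the largest fold change, 1.80 ± 0.79 on the log2 scale (SE, unadjusted p = 0.0357, edgeR adjusted p = 0.919). The median rested on single libraries, being 1.60 without P23 control 3, 0.13 without 2-day replicate 3, 0.17 without P23 control 1, 0.30 without P23 control 2, 0.36 without 2-day replicate 1 and 0.99 without 2-day replicate 4. It was 0.07 with replicate 1 in the control group of the sample sheet, -0.16 in limma-voom with library weights, 1.04 with Y-linked expression as a covariate and 0.94 without 2-day replicates 1 and 4 together.

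The second question was the same after 5 days, against P26 controls. Again no member passed (0% of tested genes called by edgeR, with 1195 genes at an unadjusted p under 0.05), while all 10 log2 fold changes were positive. DESeq2, with 1.18% of all genes called, and limma-voom with library weights, with 1.33%, called no member. Their median was 1.08, where 51.6% of all genes were positive with a median of 0.03. Pecam1, Cdh5, Kdr, Tie1 and Sox17 had all 5 Wnt libraries above all 3 controls, 5 of 10 members where 3.39% of all genes showed this pattern. It held for 7 members without 5-day replicate 3 (4.15% of all genes) and for 7 without P26 control 1 (7.13%), and for 5 without any other single library of these groups. It also depended on the scaling factor of 1.408 in P26 control 1. By library totals alone, Pecam1 would be higher in that control than in 5-day replicates 3 and 4, and Cdh5 higher than in replicate 3. Kdr, Tie1 and Sox17 would still show the pattern. Every count of members that keeps this control rests on its scaling too. With total counts only, the median fold change was 0.97. The median fold change was between 0.79 (without 5-day replicate 5) and 1.24 (without 5-day replicate 3) when 1 library of these groups was left out. Without 5-day replicates 1 and 5 together, which were also highest in stromal and mural genes, it was 0.61 and all 10 values remained positive. At the scaling used, the same 5 members then stood above all controls (9.71% of all genes). The share of mitochondrial counts was likewise higher in all 5 Wnt libraries than in the 3 controls, and its part in these differences was not tested. Among the libraries with Xist at 0 CPM was a single P26 control, replicate 1, with the scaling factor of 1.408. Its summed level was 322 CPM, against 366 to 849 CPM in the 5 Wnt libraries, but by library totals alone it would lie within their range. No 5-day library had Xist above 0, so Wnt activation and Xist status could hardly be told apart at P26. With Y-linked expression as a covariate, the median fold change at 5 days was 1.32. At P23, those with Xist at 0 held 518, 1066 and 20.5 CPM in Wnt libraries and 112 CPM in the control, and those with Xist held 838 CPM in the Wnt library and 254 and 866 CPM in controls.

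**Figure D2:**
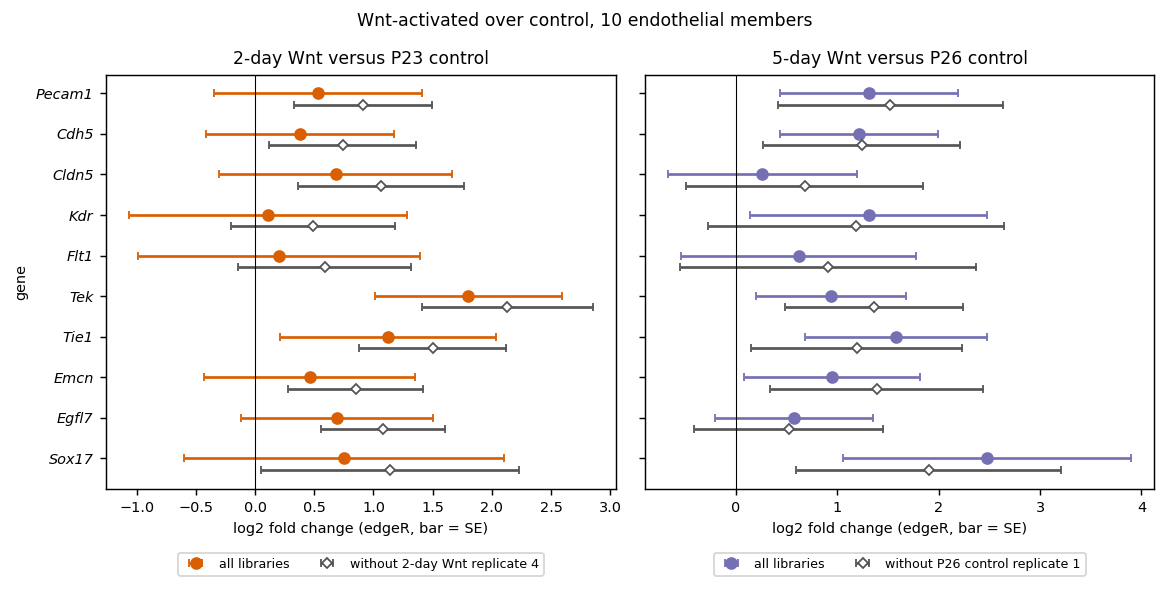
log2 fold change of each endothelial transcript (rows) with its SE (bars) from edgeR, at 2 days against P23 controls (left) and at 5 days against P26 controls (right). Filled circles use all libraries and open diamonds leave out 2-day replicate 4 (left) or P26 control 1 (right). All 20 values from all libraries are above 0, and none passed the adjusted threshold.

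The difference between the 5-day and the 2-day effect was tested as an interaction, and no member passed (0% called by edgeR, 969 genes at an unadjusted p under 0.05, and 0.88% called by DESeq2). All 2-day mice were P23 and all 5-day mice P26, so length of activation and age cannot be told apart here. The members' differences had a median of 0.47 on the log2 scale, 7 of them positive, where 52.7% of all genes were positive with a median of 0.06. The median was -0.42 without P23 control 3, 0.08 without 2-day replicate 4, 0.97 without 2-day replicate 3, 0.92 without P23 control 1, 0.81 without P26 control 1, 0.77 without P23 control 2 and 0.28 without 5-day replicate 5. It was 1.02 with the sample sheet's grouping, 0.83 in limma-voom with library weights, 0.15 for the 6 members with at least 10 counts in every library, 0.06 without 2-day replicates 1 and 4 together and 0.20 without 5-day replicates 1 and 5 together. The largest difference was 1.72 ± 1.86 for Sox17 and the lowest -0.86 ± 1.04 for Tek (log2, SE, edgeR adjusted p = 1 for both).

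Between P26 and P23 controls, which differ in age and have no Wnt activation, 9 of 10 members were lower at P26 and Tek was higher. The median was -0.57, where 48.4% of all genes were positive with a median of -0.01, and no member passed (0% called by edgeR, 1182 genes at an unadjusted p under 0.05, 1.69% called by DESeq2 and 0.791% by limma-voom with library weights). Without P23 control 3 the median was 0.34, without P23 control 1 it was -0.96, and with all libraries limma-voom with library weights gave 0.05. Sox17 had the lowest value, -2.17 ± 1.48 (SE), and Tek stood at 1.07 ± 0.81 on the log2 scale. The Wnt comparisons at 2 and 5 days have no control library in common, whereas the age comparison uses the controls of both.

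Junction genes were the most abundant members. Pecam1 encodes CD31, an adhesion molecule at endothelial contacts (ENSMUSG00000020717, GRCm38 chromosome 11, 106654217 to 106750628, minus strand). It stood at 155, 96.0, 212 and 2.24 CPM in 2-day replicates 1 to 4, against 31.8, 53.2 and 157 CPM in P23 controls, so that replicates 1 and 3 were near or above the highest control and replicate 4 was below the lowest. At 5 days it stood at 125, 102, 73.7, 72.8 and 219 CPM, against 61.2, 59.8 and 22.6 CPM in P26 controls, without overlap at the scaling used. The log2 fold changes were 0.53 ± 0.88 at 2 days (SE, edgeR adjusted p = 1) and 1.31 ± 0.88 at 5 days (adjusted p = 0.814).

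Cdh5 encodes VE-cadherin, the cadherin of endothelial adherens junctions (ENSMUSG00000031871, chromosome 8, 104101625 to 104144511, plus strand). Its levels were 237, 132, 215 and 9.46 CPM at 2 days, against 22.1, 72.9 and 248 CPM in P23 controls. At 5 days they were 214, 89.2, 75.4, 102 and 189.7 CPM, against 60.5, 62.6 and 50.4 CPM in P26 controls. The highest of all 15 values was a P23 control, replicate 3. At the scaling used, the P26 controls lay within a narrow band below all 5-day libraries. edgeR gave log2 fold changes of 0.38 ± 0.79 at 2 days (SE, adjusted p = 1) and 1.21 ± 0.78 at 5 days (adjusted p = 0.796).

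Cldn5 encodes claudin-5, the main endothelial tight junction protein (ENSMUSG00000041378, chromosome 16, 18776847 to 18778262, plus strand). It was measured at 127, 76.1, 201 and 1.86 CPM at 2 days, against 10.3, 25.01 and 155 CPM in P23 controls. At 5 days it was measured at 64.5, 37.2, 72.6, 79.7 and 59.3 CPM, against 78.4, 37.6 and 40.9 CPM in P26 controls. Unlike Pecam1 and Cdh5, its 5-day libraries overlapped the controls, and 5-day replicate 2 was the lowest of the 8. The fold changes were 0.68 ± 0.98 at 2 days (log2, SE, edgeR adjusted p = 1) and 0.26 ± 0.93 at 5 days (adjusted p = 0.999).

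Both VEGF receptors had 0 counts in 2-day replicate 4. Kdr encodes VEGFR2, the main signalling receptor for VEGF-A in endothelium (ENSMUSG00000062960, chromosome 5, 75932827 to 75978458, minus strand). At 2 days it stood at 57.9, 28.3, 58.4 and 0 CPM, against 6.05, 17.6 and 76.9 CPM in P23 controls. At 5 days it stood at 18.5, 43.1, 28.1, 29.5 and 81.2 CPM, against 13.1, 18.2 and 17.1 CPM in P26 controls. The 5-day libraries were all higher, although 5-day replicate 1 exceeded P26 control 2 only slightly. The log2 fold changes were 0.11 ± 1.17 at 2 days (SE, edgeR adjusted p = 1) and 1.31 ± 1.17 at 5 days (adjusted p = 0.932).

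Flt1 encodes VEGFR1, which binds VEGF-A tightly and also exists as a soluble form that traps it (ENSMUSG00000029648, chromosome 5, 147561604 to 147726011, minus strand). Its levels were 38.2, 20.98, 80.6 and 0 CPM at 2 days, against 5.75, 12.9 and 72.3 CPM in P23 controls. At 5 days they were 25.6, 35.4, 35.4, 41.3 and 84.9 CPM, against 39.7, 27.9 and 19.6 CPM in P26 controls. Replicate 5 stood far above the next 5-day library, and the remaining 5-day libraries overlapped the controls. edgeR gave 0.20 ± 1.19 at 2 days (log2, SE, adjusted p = 1) and 0.62 ± 1.16 at 5 days (adjusted p = 0.999).

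The Tie receptors form the angiopoietin pathway of the endothelium. Tek encodes TIE2, the receptor for angiopoietins (ENSMUSG00000006386, chromosome 4, 94739289 to 94874976, plus strand). It stood at 47.6, 12.2, 48.6 and 4.25 CPM at 2 days, against 5.10, 3.33 and 15.8 CPM in P23 controls. Replicates 1 and 3 were about 3 times the highest control, and replicate 4 was above 1 control, the only member for which that library was not the lowest or tied for it. At 5 days Tek stood at 19.3, 37.6, 14.7, 18.7 and 72.1 CPM, against 25.5, 14.6 and 10.5 CPM in P26 controls, with overlap through P26 control 1. The 5-day log2 fold change was 0.94 ± 0.74 (SE, edgeR adjusted p = 0.886), and over the 18 alternatives the 2-day value ranged between 0.28 and 2.69, with adjusted p between 0.604 and 1.

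Tie1 encodes a related receptor that modulates TIE2 (ENSMUSG00000033191, chromosome 4, 118471191 to 118490061, minus strand). It was measured at 80.7, 73.8, 121 and 1.48 CPM at 2 days, against 7.01, 24.1 and 64.4 CPM in P23 controls. Replicates 1 to 3 lay above every control and replicate 4 below every control. At 5 days it was measured at 49.0, 42.6, 31.3, 42.1 and 68.9 CPM, against 5.80, 15.9 and 25.3 CPM in P26 controls, without overlap. The log2 fold changes were 1.12 ± 0.91 at 2 days (SE, edgeR adjusted p = 1) and 1.58 ± 0.90 at 5 days (adjusted p = 0.73).

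Emcn encodes endomucin, a sialomucin of the capillary and venous surface (ENSMUSG00000054690, chromosome 3, 137341067 to 137432185, plus strand). Its levels were 28.8, 18.5, 32.9 and 0.19 CPM at 2 days, against 7.72, 8.54 and 27.4 CPM in P23 controls. At 5 days they were 21.6, 21.7, 13.1, 19.3 and 39.3 CPM, against 18.2, 11.3 and 6.19 CPM in P26 controls. At the scaling used, only 5-day replicate 3 fell below a P26 control, replicate 1. By library totals alone, 5-day replicates 1 to 4 would all fall below that control. edgeR gave 0.46 ± 0.89 at 2 days (log2, SE, adjusted p = 1) and 0.95 ± 0.87 at 5 days (adjusted p = 0.936).

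Egfl7 encodes a protein that endothelial cells secrete into the vessel matrix (ENSMUSG00000026921, chromosome 2, 26580014 to 26593120, plus strand). At 2 days it stood at 46.0, 53.0, 75.5 and 1.00 CPM, against 13.8, 28.2 and 39.4 CPM in P23 controls, and as for Tie1 replicates 1 to 3 were above every control. At 5 days it stood at 62.6, 24.1, 11.1, 28.3 and 27.2 CPM, against 19.2, 22.97 and 19.9 CPM in P26 controls, with 5-day replicate 3 lowest of the 8. The log2 fold changes were 0.69 ± 0.81 at 2 days (SE, edgeR adjusted p = 1) and 0.57 ± 0.78 at 5 days (adjusted p = 0.987). Egfl7 counts are uncertain, because the gene overlaps Gm20532 on its own strand by 6482 bases and Agpat2, at 34.6 to 2104 CPM, on the other strand by 64 bases, and the strand setting is not given in the sources used here.

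Sox17 encodes a transcription factor of endothelium that is known for its part in arterial identity (ENSMUSG00000025902, chromosome 1, 4490931 to 4497354, minus strand). It was measured at 19.95, 6.92, 20.5 and 0 CPM at 2 days, against 1.91, 8.58 and 10.6 CPM in P23 controls. At 5 days it was measured at 8.89, 12.8, 10.1, 4.39 and 7.16 CPM, against 0, 2.15 and 2.51 CPM in P26 controls. It had the largest 5-day fold change of the members and no overlap there, at the lowest level of the 10. edgeR gave 2.48 ± 1.42 at 5 days (log2, SE, adjusted p = 0.73) and 0.75 ± 1.35 at 2 days (adjusted p = 1).

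2-day replicate 4 stood apart from all other libraries in these transcripts. It held 20.5 CPM in sum, against 112 to 1066 CPM in the other 14, whose median of 442 CPM was 21.5 times higher. It held 0 counts of Kdr, Flt1 and Sox17, which allows up to 0.143 CPM for each (3 counts), 4 counts of Emcn, 21 of Egfl7, 31 of Tie1, 39 of Cldn5, 47 of Pecam1, 89 of Tek and 198 of Cdh5. Of the other 14 libraries, P26 control 1 alone had a member at 0, Sox17, which allows up to 0.136 CPM. Such floors cover counting error only. The library was the lowest of the 15, with no tie, for 8 of the 10 members. Of 26 other genes widely used as endothelial markers, 15 were at 0 in this library, among them Erg, Esam, Vwf and Gpihbp1, while Ramp2 held 147 CPM and Nos3 held 40.4 CPM. The 11 mural genes summed to 365 CPM in it, below the 537 to 2205 CPM of the others, with 2 of them at 0. Its 9 adipocyte genes (59370 CPM), 10 leukocyte genes (375 CPM) and 7 stromal genes (10230 CPM) summed to values within the range of the others, and its total of 22996314 counts was within it too. Of 9318 genes averaging 10 CPM or more, 1.31% were at 0 in this library, against 3.04% in P26 control 1, 1.99% in 5-day replicate 1 and 0.161% to 0.966% in the others. Of 14730 genes averaging 1 CPM or more, 1868 were at 0 in it, against 2339 in P26 control 1, 2204 in 5-day replicate 1 and 408 to 1430 in the others. With it left out, Tie1 and Egfl7 had all 3 remaining 2-day libraries above all 3 P23 controls, 2 of 10 members where 4.62% of all genes showed this.

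Among the P23 controls, replicate 3 had the highest value for all 10 members, and replicate 1 the lowest for 9. Over all 15 libraries, 5-day replicate 5 was the highest for 5 members, 2-day replicate 3 for 4 and P23 control 3 for 1. The spread of the mean log2 CPM of the members was 3.18 at 2 days (SD, n = 4), 1.39 in P23 controls (n = 3), 0.42 at 5 days (n = 5) and 0.20 in P26 controls (n = 3).

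The 10 transcripts varied together from library to library. Over the 45 pairs and 15 libraries, Pearson's r of log2 CPM had a median of 0.86 (0.39 to 0.98), and Spearman's rho a median of 0.75 (0.43 to 0.97). For r, 44 of the 45 pairs had a Benjamini-Hochberg adjusted p under 0.05 over the 45 pairs (permutation test), and 35 did without 2-day replicate 4. The share among pairs of other genes was not computed, so these counts do not set the members apart from other genes. The closest pair was Pecam1 and Emcn, with r = 0.98 (permutation p = 1e-05, the smallest that the permutations can give, adjusted p = 5.62e-05) and rho = 0.97 (permutation p = 1e-05, adjusted p = 0.000112). Without the 2 libraries farthest from the Pecam1 median, r for this pair was 0.94. The loosest pair was Tek and Sox17, with r = 0.39 (permutation p = 0.147, adjusted p = 0.147) and rho = 0.52 (permutation p = 0.0472, adjusted p = 0.0518). Without the 2 libraries farthest from the Tek median, r for this pair was 0.54. Those 2 did not include 2-day replicate 4, and without that replicate r was 0.19. The receptors Kdr and Flt1 had r = 0.97 and rho = 0.82, whereas Tek and Tie1 had 0.63 and 0.64. Without 2-day replicate 4, r was 0.86 for Kdr and Flt1 and 0.52 for Tek and Tie1. Without the 2 libraries farthest from the median of Kdr or of Tek, r was 0.77 and 0.70. These 2 values are not alike, because 2-day replicate 4 was left out for Kdr and kept for Tek.

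The relations were weaker without 2-day replicate 4. Then the median r over the pairs was 0.73 (0.19 to 0.96). With all libraries but the 2 farthest from the median of 1 gene of each pair, the one named first in the order of the members, it was 0.70 (0.13 to 0.94). After each group's mean was taken away, the median was 0.90 (0.50 to 0.99) over all libraries and 0.68 (-0.14 to 0.94) without 2-day replicate 4. Tek had a median r of 0.68 with the other members and Sox17 of 0.72, the lowest of the 10 over all libraries. Without 2-day replicate 4 the lowest were Sox17 (0.47) and Egfl7 (0.60), with Tek at 0.63, and by rho they were Egfl7 (0.65) and Tek (0.66), so the order depended on the measure.

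**Figure D3:**
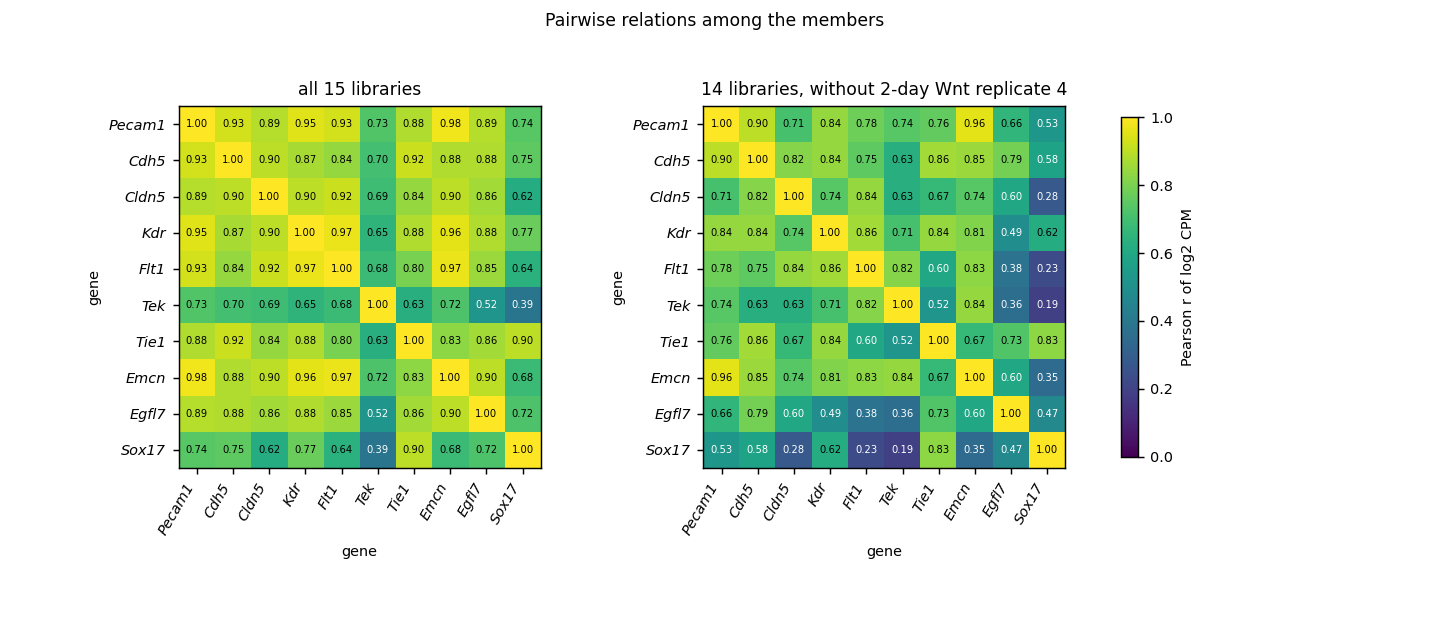
Pearson's r of log2 CPM (colour scale, value printed in each cell) between each pair of endothelial transcripts, over all 15 libraries (left) and over the 14 without 2-day replicate 4 (right). The lowest value on the left is 0.39, between Tek and Sox17, and the median over pairs is 0.86 on the left and 0.73 on the right.

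Of 10632 eligible genes, the 5 whose log2 CPM had the highest r with the mean of the 10 members were S1pr1, a receptor for sphingosine 1-phosphate, Myh11, the myosin heavy chain of smooth muscle, Ablim3, Mmrn2, an endothelial matrix protein, and Tmem252. Each had r = 0.96 over the 15 libraries, and 0.85 to 0.89 without 2-day replicate 4. All 5 were at 0 CPM in 2-day replicate 4. In the other 14 libraries S1pr1 ran between 8.66 and 79.0 CPM and Myh11 between 6.63 and 518 CPM. S1pr1 and Mmrn2 belong to the list of other endothelial markers, and Myh11 to the mural list.

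The list of 26 other endothelial markers does not include the members. At 2 days 25 of 26 had a positive log2 fold change (median 0.63) and at 5 days 24 of 26 (median 1.01), and none passed the test in either direction. Their summed level was 264 to 1916 CPM at 2 days, against 335 to 1263 CPM in P23 controls, and 758 to 1658 CPM at 5 days, against 539 to 685 CPM in P26 controls. The most abundant were Plvap, which encodes the diaphragm protein of fenestrated vessels, Ramp2, a partner of the adrenomedullin receptor, Eng, a TGF-β co-receptor, and Nos3, the endothelial nitric oxide synthase. Plvap stood at 210.2 ± 59.9 CPM at 5 days (SD, n = 5), against 106 ± 36.7 CPM in P26 controls (n = 3). Eng stood at 119.7 ± 67.0 CPM (n = 5) against 52.1 ± 7.85 CPM (n = 3). At the scaling used, every 5-day library was above every control for both, a pattern shown by 3.39% of all genes. The margins were small, with 136.7 CPM against 127.1 CPM in the highest control for Plvap, and 63.8 against 59.9 CPM for Eng. Ramp2, at 133 ± 37.8 CPM against 137 ± 63.9 CPM, and Nos3, at 43.8 ± 17.2 CPM against 61.6 ± 47.7 CPM, overlapped between the groups.

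Among genes that mark vessel types, the 7 arterial ones (Gja4, Gja5, Dll4, Hey1, Efnb2, Bmx and Unc5b) had positive fold changes for 7 at 2 days (median 1.12) and 4 at 5 days (median 1.57), with sums of 14.2 to 127 CPM at 2 days, against 17.5 to 74.5 CPM in P23 controls, and 37.6 to 88.2 CPM at 5 days, against 10.99 to 93.5 CPM in P26 controls. The arterial median at 5 days was the value of Gja5, at a mean of 0.57 CPM in P26 controls. Efnb2, the most abundant arterial gene, stood at -0.38 ± 0.94 at 5 days (log2, SE). Of the 5 venous genes (Nr2f2, Ephb4, Ackr1, Selp and Sele), 4 were positive at 2 days (median 0.10) and 5 at 5 days (median 0.55). They summed to 45.4 to 360.5 CPM at 2 days, against 89.1 to 290.4 CPM in P23 controls, and to 233 to 925 CPM at 5 days, against 184 to 485 CPM in P26 controls. Of 7 lymphatic genes 6 could be tested, with 6 positive at 2 days (median 1.95) and 5 at 5 days (median 1.67). These medians include Prox1 and Reln, at means of 0.85 and 0.19 CPM in P26 controls. Lyve1, the most abundant lymphatic gene, stood at 0.46 ± 0.73 at 2 days and -0.35 ± 0.69 at 5 days (log2, SE). The 7 summed to 31.9 to 177 CPM at 2 days, against 23.1 to 41.7 CPM in P23 controls, and to 50.8 to 282 CPM at 5 days, against 53.4 to 165 CPM in P26 controls. Of the 9 genes for VEGFs, angiopoietins and apelin, the ligands of these receptors and of the apelin receptor, 5 were positive at 2 days (median 0.09) and 6 at 5 days (median 0.55). Vegfa, the best known growth factor of vessels, had a log2 fold change of -0.65 ± 0.47 at 2 days (SE, edgeR adjusted p = 1) and -0.06 ± 0.45 at 5 days (adjusted p = 1). No gene of these 4 lists passed the test.

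Markers of other cells were set beside the endothelial transcripts. No gene of the mural, stromal, erythroid, adipocyte, leukocyte or mitochondrial lists passed the edgeR test, and their part in the values of the members was not tested. The 11 mural genes were positive for 9 at 2 days (median 0.66) and for 8 at 5 days (median 1.34), with sums of 365 to 1370 CPM at 2 days, against 544 to 933 CPM in P23 controls, and 676 to 2205 CPM at 5 days, against 537 to 731 CPM in P26 controls. The 7 stromal genes were positive for 7 at 2 days (median 0.99) and 6 at 5 days (median 0.81), with sums of 6586 to 20940 CPM at 2 days, against 6599 to 7103 CPM in P23 controls, and 12660 to 63000 CPM at 5 days, against 4452 to 17370 CPM in P26 controls. The 5 erythroid genes, which mark blood, were positive for all 5 at both times (medians 0.78 and 1.45), with sums of 233 to 1902 CPM at 5 days, against 89.1 to 382 CPM in P26 controls. The 9 adipocyte genes were positive for 1 at 2 days (median -0.41) and 0 at 5 days (median -0.37), with sums of 20900 to 64100 CPM at 2 days, against 46890 to 75440 CPM in P23 controls, and 10820 to 52120 CPM at 5 days, against 10450 to 67530 CPM in P26 controls. Of 9 leukocyte genes tested, 9 were positive at 2 days (median 1.05) and 3 at 5 days (median -0.31). The 9 mitochondrially encoded genes were positive for 9 at both times, with medians of 1.17 and 1.18.

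The remaining lists mark tissue that can come along with skin fat, and none of their genes passed the test. At 2 and 5 days their median log2 fold changes were 0.60 and -3.12 for 6 keratinocyte genes, 2.04 and 1.32 for 6 Schwann cell genes, and 0.67 and -1.03 for 5 skeletal muscle genes. The keratinocyte genes summed to 3690 CPM in P26 control 1, against 356 and 420 CPM in P26 controls 2 and 3. At 5 days they summed to 30.8 to 503.6 CPM, so 1 control library stood apart. The 5 platelet genes summed to 21.6 to 27.4 CPM at 2 days, against 13.1 to 17.5 CPM in P23 controls, and to 15.3 to 38.8 CPM at 5 days, against 8.20 to 64.8 CPM in P26 controls. Their median fold changes over the 4 that could be tested, 0.19 and 3.15, include Ppbp and Gp1ba, which were under 1 CPM in every library and at 0 in all P26 controls, while Pf4, the most abundant, stood at -0.76 ± 0.65 at 5 days (log2, SE, edgeR adjusted p = 0.914). The 6 hair follicle genes had medians of 11.92 and -2.0, and for each 1 library stood apart. 2-day replicate 1 held a sum of 4341 CPM against at most 47.6 CPM in the other 2-day libraries, and the 5-day libraries held 4.04 to 254.4 CPM, against 762 CPM in P26 control 1, 0.56 CPM in control 2 and 0.72 CPM in control 3.

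**Figure D4:**
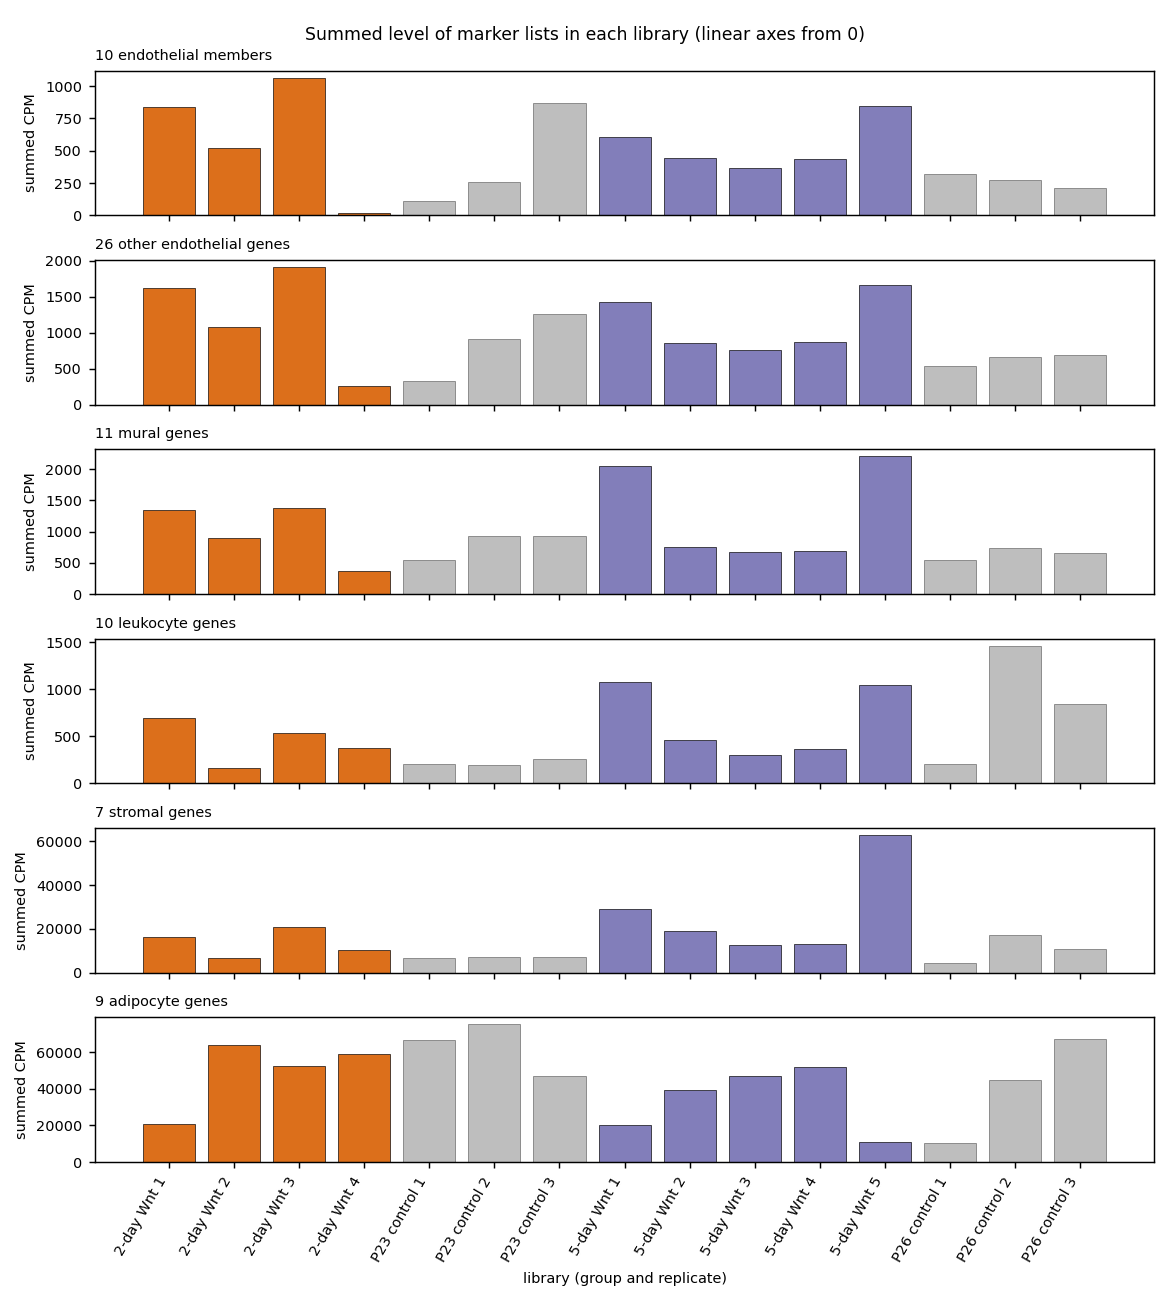
Summed CPM (vertical axes, linear from 0) of the 10 endothelial members and of 5 other marker lists in each of the 15 libraries (horizontal axis, Wnt libraries left of the controls of their age). The members and the 26 other endothelial genes are lowest in 2-day replicate 4, while its leukocyte, stromal and adipocyte sums are within the range of the others.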

How the data were processed

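Counts per gene were analysed as the authors deposited them, 1 column per library. Per the submitters' processing notes, their pipeline used Cufflinks 2.2.1, DESeq2 1.40.1, SAMtools 1.9 and Trimmomatic 0.39 with mm10 (GRCm38). Of the aligner, the counter and the strand setting nothing is stated in the sources used here. edgeR 4.0.16 (R 4.3.3) filtered genes by filterByExpr, which kept 16935 genes and all 10 members, of which 6 had at least 10 counts in every library. All 15 libraries were scaled by the trimmed mean of M values and fitted with 4 groups in the quasi-likelihood framework, with two-sided p-values adjusted by Benjamini-Hochberg over all tested genes and a threshold of 0.05. The fit was tested on simulated data. Log2 CPM used a prior count of 2, and pairwise permutation tests used 100000 permutations. Same-numbered libraries correlated by -0.01, 0.16 and 0.07 at P23 and by 0.08, 0.08 and 0.14 at P26 in their deviations from group means, so the numbers were not treated as pairs.

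All 10 members are named. Other lists are given as counts, with called genes or, where none was called, the most abundant ones named, at most 4 a list. Erg, Esam, Vwf and Gpihbp1 were named after their values in 1 library were seen. The genes most like the members are the 5 with the highest Pearson's r with their mean log2 CPM. The members and lists were chosen with earlier results of these data known. Alternatives were other size factors, filters and tests (DESeq2 1.42.0, limma 3.58.1), other samples, a replicate block, Y-linked expression as a covariate, the sample sheet's grouping and leaving out libraries. Exon lengths came from GENCODE M21, whose coordinates equal those of the table for all 10 members. Overlaps were taken from the gene coordinates deposited with the counts.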

Additional observations from a re-analysis of the deposited data

Results flagged for a closer look

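Flt1 in 5-day replicate 5, at 84.9 CPM, lay far from the other 4 libraries of its group, which held 25.6 to 41.3 CPM. Its gap to the nearest of them was 0.735 of the group's range, above the critical 0.71 of Dixon's test for 5 samples. The members and their sum were examined in the 2-day and 5-day groups, and chance alone exceeds this limit in about 1 group in 20. 2-day replicate 4, although the lowest of its group for every member, did not exceed the limit of 0.829 for 4 samples, its largest ratio being 0.607 for Tie1.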

How the results depend on the processing

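No member passed the threshold in any comparison under any alternative, with adjusted p between 0.527 and 1. For single members, 372 fold changes kept their direction when another setting was used and 32 did not, and 332 kept it when 1 library was left out and 28 did not. At 2 days, limma-voom with library weights gave log2 fold changes of -0.24 for Pecam1, -1.35 for Kdr, -1.24 for Flt1, -0.64 for Emcn, -0.08 for Egfl7 and -0.71 for Sox17, and the sample sheet's grouping gave -0.29 for Cdh5, -0.46 for Kdr, -0.07 for Emcn and -0.16 for Sox17. At 5 days the weights gave -0.12 for Egfl7. For P26 against P23 controls, Flt1 was 0.12 with total counts only, the weights gave 0.05 for Cdh5, 0.57 for Cldn5, 0.15 for Kdr, 0.81 for Flt1, 0.05 for Tie1 and 0.02 for Egfl7, the Y-linked covariate gave 0.03 for Cldn5 and 0.13 for Flt1, and the sheet's grouping gave -0.08 for Tek. For the difference between effects, the sheet's grouping gave 0.03 for Cldn5, 0.67 for Tek and 0.13 for Egfl7, and leaving out 2-day replicates 1 and 4 together, chosen after seeing the data, gave -0.11 for Flt1 and -0.02 for Tie1. Leaving out 5-day replicates 1 and 5 together, also chosen after seeing the data, gave a 5-day median of 0.61. The cause was not tested.

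The replicate block, with numbers that do not pair the samples, gave a median of 1.24 at 2 days and 0.79 at 5 days. For the difference it gave a median of -0.37, with -0.02 for Pecam1, -0.33 for Cdh5, -0.29 for Kdr, -0.97 for Flt1, -0.40 for Tie1 and -0.33 for Emcn. It called no member.

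Leaving out 1 library in turn gave ranges that cross 0 at 2 days for Cdh5 (-0.11 to 1.62), Kdr (-0.39 to 1.59) and Flt1 (-0.62 to 1.87). For the difference they crossed 0 for Pecam1 (-0.09 to 1.24), Cdh5 (-0.39 to 1.32), Cldn5 (-2.22 to 0.15), Kdr (-0.24 to 1.70), Flt1 (-1.23 to 1.24), Tie1 (-0.53 to 0.99), Emcn (-0.30 to 0.95) and Egfl7 (-0.56 to 0.27). For P26 against P23 controls they crossed 0 for Pecam1 (-1.13 to 0.14), Cdh5 (-1.47 to 0.26), Cldn5 (-0.79 to 1.55), Kdr (-1.55 to 0.42), Flt1 (-0.55 to 1.61) and Emcn (-0.76 to 0.52), and the median of the members ran between -0.96 and 0.34. No member's range crossed 0 at 5 days.

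Of all genes, edgeR called 0 in each comparison. DESeq2 called 149 at 2 days, 200 at 5 days, 149 for the difference and 286 between controls, and limma-voom with weights called 226 at 5 days and 134 between controls, none of them a member. Leaving out 1 library gave 0 to 4 called genes at 5 days, 0 to 2 for the difference and 0 to 2 between controls. The number of member pairs with an adjusted p under 0.05 was 35 to 45 when 1 library was left out. Depth limits the lowest values only: a library's floor of 3 counts was 0.0766 to 0.254 CPM.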
